A study of Homo sapiens with 27 samples.

Results

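The genes described here encode 10 antioxidant enzymes and carriers that remove superoxide, hydrogen peroxide and lipid peroxides: SOD1, SOD2, CAT, PRDX3, PRDX5, TXN2, TXNRD1, TXNRD2, GPX1 and GPX4. They were chosen by name, with SOD2 as the known substrate of SIRT3, and all 10 were found among the 27115 genes listed in each library. Every one of them passed the filter on low values, with 341 to 27411 reads behind each value.

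SIRT3 is a deacetylase of the mitochondrial matrix. Its best known antioxidant link is the removal of acetyl groups from SOD2, the manganese superoxide dismutase of the matrix, which raises the activity of that enzyme. Superoxide dismutases turn superoxide into hydrogen peroxide, which is then cleared by catalase in peroxisomes, by peroxiredoxins that are recharged by thioredoxins and thioredoxin reductases, and by glutathione peroxidases. Deacetylation acts on the protein, so mRNA levels report on the amount of template for these enzymes and not on their acetylation or activity.

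RNA was sequenced from 3 established diffuse large B-cell lymphoma (DLBCL) lines: Karpas422, of the oxidative phosphorylation (OXPHOS) type, OCILy1 (OCI-LY1), of the germinal center B-cell (GCB) type, and HBL1, of the activated B-cell (ABC) type. Each line received a lentiviral scramble hairpin, called shCTRL, or 1 of 2 hairpins against SIRT3, called shSIRT3_1 and shSIRT3_2, and was harvested at day 8 after infection. The hairpin vector carried resistance to puromycin and a yellow fluorescent protein, so the controls bore the vector as well. There were 3 replicates in each of 9 groups, 27 libraries in all, and the knockdowns were replicated within each line. Whether each replicate was an infection of its own is not given in the sources used here, so p-values measure the spread between these samples, which may in part be technical. OCILy1 was grown in another basal medium than Karpas422 and HBL1, so line and medium cannot be told apart where OCILy1 is compared with the other lines.

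Between 28694398 and 53405456 reads fell on genes per library. The third replicate of HBL1 with shSIRT3_1 stood apart: 410 genes lay more than 2-fold above both other replicates and 632 more than 2-fold below, against at most 107 and 104 in any of the other 26 libraries. Results for the enzymes that crossed a threshold without it are given with and without it. It also counts in the shared spread of every HBL1 fit. The summed level of 6 B-cell markers was 945 to 2494 CPM (the CPM of a gene are its reads scaled to the library total that the authors divided by) over all groups. It was lower in Karpas422 with shSIRT3_2, at 945 to 1484 CPM against 1633 to 2363 CPM with shCTRL, and in HBL1 with shSIRT3_2, at 1495 to 1572 CPM against 1779 to 2194 CPM. Among markers of other cell types, 4 myeloid markers summed to at most 1.09 CPM, 3 epithelial markers to at most 7.42 CPM and, outside Karpas422, 4 T-cell markers to at most 0.103 CPM. Karpas422 held CD3G at 17.6 to 41.4 CPM and the fibroblast marker DCN at 104 to 423 CPM, lower with both SIRT3 hairpins, while COL1A1 stayed at or below 0.0212 CPM there. HBL1 held COL1A2 at 1.72 to 62.0 CPM, highest with shSIRT3_2. Its summed fibroblast markers were 13.0 to 15.4 CPM with shCTRL, 1.80 to 5.78 CPM with shSIRT3_1 and 36.8 to 62.1 CPM with shSIRT3_2. The part of these markers in the results was not tested. In bulk RNA, fewer cells of a kind and less RNA per cell cannot be told apart.

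SIRT3 itself checked the labels. It lay at 9.14 to 16.4 CPM in the 9 shCTRL libraries, at 1.06 to 2.79 CPM with shSIRT3_1 and at 2.84 to 6.24 CPM with shSIRT3_2. No library of either knockdown reached the control range of its line.

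In the control cells, the cytosolic dismutase SOD1 and the peroxiredoxin PRDX5 were the most abundant of the transcripts that could be ordered, and the mitochondrial reductase TXNRD2 was among the least. Levels can be ordered between genes only per length, so CPM was divided by the length in kilobases of each gene's MANE Select transcript. On that scale, SOD1 stood at 193 ± 11.1, 168 ± 29.5 and 141 ± 5.58 CPM per kb in Karpas422, OCILy1 and HBL1 (SD, n = 3 in each), and PRDX5 at 110.0 ± 6.44, 105 ± 10.1 and 107 ± 12.8. PRDX3 and GPX4 shared the next places, with PRDX3 above GPX4 in Karpas422 (74.2 ± 6.55 against 44.3 ± 4.44 CPM per kb) and GPX4 above PRDX3 in HBL1 (92.8 ± 7.21 against 50.7 ± 7.06). In OCILy1 the means of PRDX3 and GPX4, 61.8 and 58.7 CPM per kb, differed by less than either SD. TXN2 followed in all 3 lines at 28.9 to 35.1 CPM per kb. TXNRD1, GPX1 and CAT changed places from line to line below it, and TXNRD2 lay at 2.93 to 4.88 CPM per kb. SOD2 was given no place, because the lengths of its 11 annotated protein-coding transcripts run from 507 to 14167 bases. The order depends on the gene model: with the union of all exons as the length, PRDX5 stood above SOD1 in every line, and TXN2 above GPX4 in Karpas422 and OCILy1 (28.4 against 27.2 CPM per kb in the latter) and above PRDX3 in HBL1 (26.0 against 23.3 CPM per kb).

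**Figure D1:**
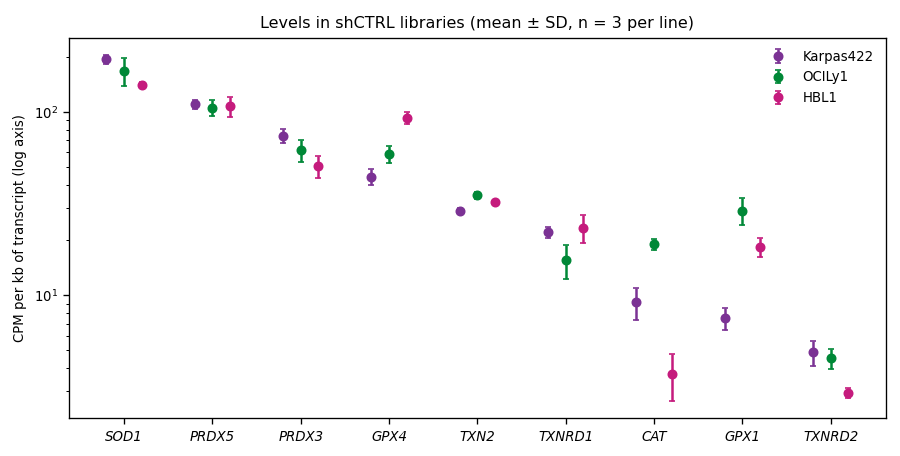
Levels of 9 of the enzymes in the shCTRL libraries of the 3 lines, in CPM per kb of transcript on a log axis, as mean ± SD over 3 replicates. SOD1, PRDX5 and TXN2 sit close together across lines, while CAT, GPX1 and GPX4 spread widely, with CAT lowest in HBL1 and GPX1 lowest in Karpas422.

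Between the lines, CAT, GPX1 and GPX4 differed most. In what follows a gene is said to rise, fall or differ when its Benjamini-Hochberg adjusted p from limma over all genes tested is under 0.05, and it is called when the change is also more than 1.5-fold. Catalase in the shCTRL libraries was 46.0, 40.0 and 44.6 CPM in OCILy1, 19.9, 17.5 and 25.4 CPM in Karpas422 and 7.64, 6.64 and 11.2 CPM in HBL1. No 2 of these groups overlapped. HBL1 was lower than OCILy1 by a log2 difference of −2.38 (SE 0.20, adjusted p = 1.6e-06) and lower than Karpas422 by −1.31 (SE 0.20, adjusted p = 0.00017). GPX1 ran in another order, at 29.4, 21.0 and 27.5 CPM in OCILy1, 15.3, 15.3 and 18.7 CPM in HBL1 and 5.65, 7.20 and 7.37 CPM in Karpas422, again without overlap. Karpas422 was lower than OCILy1 by −1.93 (SE 0.17, adjusted p = 2.7e-06). GPX4, the selenoenzyme that reduces lipid hydroperoxides in membranes, was highest in HBL1 at 78.1, 85.5 and 73.4 CPM, against 35.3, 35.8 and 42.1 CPM in Karpas422 and 54.0, 43.95 and 52.1 CPM in OCILy1.

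Of the 10 enzymes, 5 were called between HBL1 and Karpas422, where 54.6% of all 12607 genes tested were called: GPX1, GPX4 and SOD2 were higher in HBL1 and CAT and TXNRD2 lower. Another 5 were called between HBL1 and OCILy1, against a background of 54.6% as well, with GPX4 and TXNRD1 higher in HBL1 and CAT, TXNRD2 and GPX1 lower. Between Karpas422 and OCILy1, 2 were called, CAT and GPX1, where the background was 50.8%. These shares are close to or below those of all genes, and the comparisons share control libraries. The call of TXNRD1 between HBL1 and OCILy1 (log2 difference 0.59, adjusted p = 0.011) was just past 1.5-fold and fell to 0.44 to 0.53 without HBL1 replicate 1, HBL1 replicate 2 or OCILy1 replicate 3, to 0.52 by edgeR and to 0.57 after median-ratio scaling. In the same way TXNRD2 between HBL1 and OCILy1 (−0.61) was −0.54 to −0.58 without HBL1 replicate 2 or OCILy1 replicate 1 or 2 and −0.54 with a pseudocount of 1, GPX1 (−0.65) was −0.55 without OCILy1 replicate 1 and GPX4 (0.66) was 0.57 without OCILy1 replicate 2. The SOD2 call between HBL1 and Karpas422 (0.63, adjusted p = 0.040) had an adjusted p of 0.083 to 0.16 without HBL1 replicate 1 or 2, or Karpas422 replicate 1 or 2. PRDX5 did not pass the test between any lines, with log2 differences of at most 0.063 in size.

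Over the 3 lines together, all but 1 of the changes after SIRT3 knockdown were smaller than 1.5-fold. With shSIRT3_1 none of the 10 was called, where 13% of all 13076 genes tested were, and 3 passed the adjusted p at any fold, against 37.9% of all genes: TXN2 rose, and SOD1 and PRDX5 fell. By edgeR on the recovered reads none was called either, and the same 3 had an unadjusted limma p under 0.05. With shSIRT3_2 GPX1 alone was called, where 13.5% of all genes were, and 5 passed the adjusted p, against 38.1% of all genes: SOD2, GPX1 and GPX4 rose, and CAT and TXNRD1 fell. No enzyme passed with both hairpins, which by itself does not show that the hairpins differ; their difference was tested separately. The median log2 fold change over the 10 was −0.036 with shSIRT3_1 and −0.0070 with shSIRT3_2, beside −0.047 and −0.034 over all genes. Both comparisons use the same control libraries.

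Line by line, the counts passing the adjusted p were close to the background, and groups without overlap were common among all genes. In Karpas422 4 of the 10 passed the adjusted p with shSIRT3_1 and 5 with shSIRT3_2, against 33.7% and 31.1% of all genes. With shSIRT3_1 1 enzyme lay wholly above the controls and 3 wholly below, against 18.0% and 29.2% of all 13076 genes. With shSIRT3_2 4 lay wholly above and 4 wholly below, against 20.6% and 23.4%. In HBL1 4 passed with each hairpin, against 40% and 34.7%. There 2 lay wholly above the controls and 3 wholly below with shSIRT3_1, against 19.3% and 29.7% of all genes. With shSIRT3_2 5 lay wholly above and 3 wholly below, against 24.9% and 34.0%. In OCILy1 0 passed with shSIRT3_1 and 1 with shSIRT3_2, against 7.31% and 9.42%. There 1 lay wholly above the controls and 0 wholly below with shSIRT3_1, against 16.0% and 13.4% of all genes. With shSIRT3_2 1 lay wholly above and 1 wholly below, against 14.6% and 17.2%. In HBL1 and in OCILy1 all 9 pairs of same-numbered replicates deviated together at r over 0.1, as did 8 of 9 in Karpas422. The fit with the replicate number as a block is therefore given where it changed which enzymes passed. With the block, 6 enzymes passed with each hairpin in HBL1, against 49.8% and 44.7% of all genes, SOD2 and TXNRD2 being added with shSIRT3_1 and SOD2 and PRDX3 with shSIRT3_2. In OCILy1 SOD1 was added with shSIRT3_1 (1 of 10, against 13% of all genes). In Karpas422 GPX1 was added with shSIRT3_2 (6 of 10, against 36.6% of all genes).

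**Figure D2:**
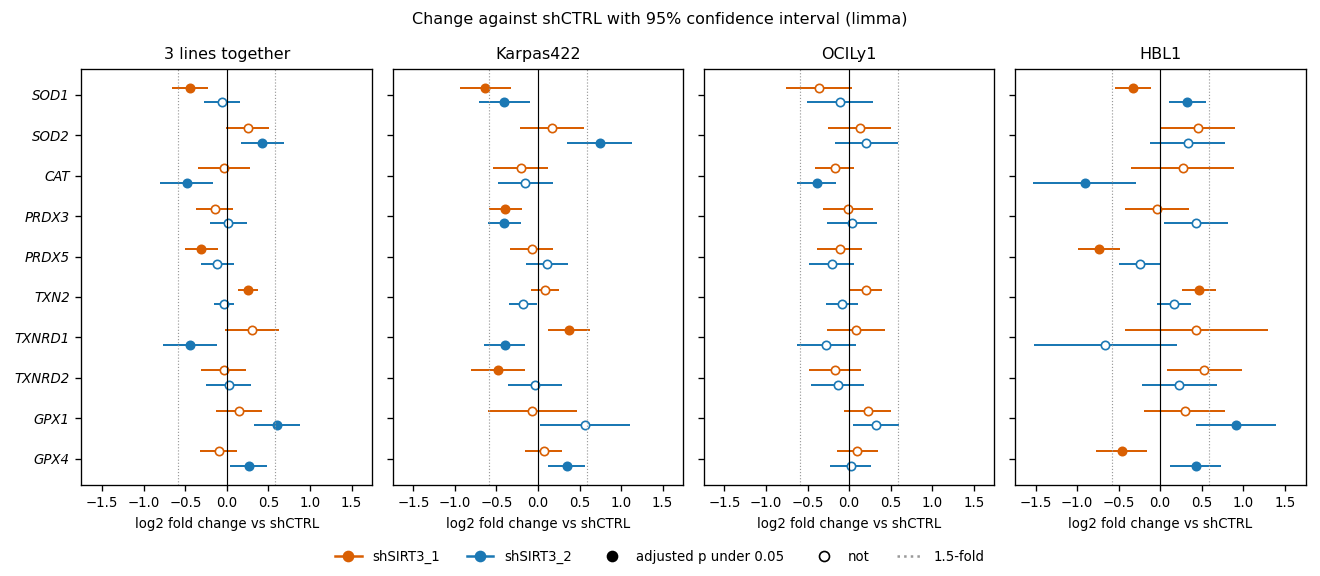
Log2 fold change against shCTRL with its 95% confidence interval from limma, for the 10 enzymes over the 3 lines together and in each line, with dotted lines at 1.5-fold. Filled points have an adjusted p under 0.05. In OCILy1 only CAT with shSIRT3_2 is filled. In HBL1 the points of shSIRT3_1 and shSIRT3_2 lie on opposite sides of 0 for SOD1, CAT, PRDX3, TXNRD1 and GPX4. Without the third shSIRT3_1 replicate both are below 0 for TXNRD1 and above 0 for PRDX3, and CAT with shSIRT3_1 is 0.027.

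SOD2 (chromosome 6, 160090101 to 160183561, minus strand, hg19) encodes the matrix dismutase that SIRT3 deacetylates. In Karpas422 its level was 31.7, 24.4 and 40.5 CPM with shCTRL, 32.3, 34.7 and 39.8 CPM with shSIRT3_1 and 46.9, 54.7 and 57.8 CPM with shSIRT3_2. All 3 shSIRT3_2 libraries lay above the controls, and the shSIRT3_1 libraries lay among them. In OCILy1 it was 38.6, 24.6 and 40.4 CPM with shCTRL, 37.4, 38.0 and 35.1 CPM with shSIRT3_1 and 39.6, 40.0 and 37.2 CPM with shSIRT3_2, and the groups overlapped. In HBL1 it was 60.6, 50.8 and 38.0 CPM with shCTRL, 74.0, 71.2 and 56.8 CPM with shSIRT3_1 and 67.6, 68.4 and 50.7 CPM with shSIRT3_2. The third replicate was the lowest in each HBL1 group, and the groups overlapped. Within each replicate number both knockdown libraries of HBL1 lay above the control.

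Over the lines, SOD2 rose with shSIRT3_2 by a log2 fold change of 0.43 (SE 0.12, adjusted p = 0.0072), a 1.35-fold change, and 9 of 9 libraries lay above the control mean of their line. With shSIRT3_1 the value was 0.25 (SE 0.12, adjusted p = 0.11), again with 9 of 9 libraries above the control mean. The OCILy1 control mean was lowered by replicate 2, and all 3 OCILy1 shSIRT3_1 libraries lay below the other control replicates. The hairpins did not differ past the threshold (0.18, 95% confidence interval −0.070 to 0.43, adjusted p = 0.26). In Karpas422 they did, with SOD2 higher with shSIRT3_2 than with shSIRT3_1 by 0.58 (adjusted p = 0.037). That difference had an adjusted p of 0.052 to 0.12 in 10 of 16 alternatives, among them leaving out control replicate 1, any 1 shSIRT3_1 replicate or shSIRT3_2 replicate 2 or 3. In Karpas422 alone the rise with shSIRT3_2 was called at 0.74 (SE 0.17, adjusted p = 0.0095), where 15% of all 11235 genes tested in that line were called. It fell to 0.56, under 1.5-fold, without the second control replicate (adjusted p = 0.026). The summed B-cell markers and DCN were lower in the same Karpas422 libraries, and their part was not tested. In HBL1 the value with shSIRT3_1 was 0.45 (SE 0.19, adjusted p = 0.092), and 0.57 (adjusted p = 0.042) without the third shSIRT3_1 replicate. With shSIRT3_2 it was 0.33 (adjusted p = 0.21). With the replicate number as a block, SOD2 passed in HBL1 with both hairpins, at the same values (adjusted p = 0.0052 with shSIRT3_1 and 0.018 with shSIRT3_2). Without Karpas422, the change with shSIRT3_2 over the other lines was 0.27 (adjusted p = 0.14). In OCILy1 it was 0.21 (adjusted p = 0.44), and −0.021 (adjusted p = 0.90) without the second control replicate, which was the lowest of that group. With shSIRT3_1 the OCILy1 value was 0.13 (adjusted p = 0.65), and −0.10 (adjusted p = 0.505) without that control replicate.

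SOD1 (chromosome 21, 33031979 to 33041244, plus strand) encodes the copper-zinc dismutase of the cytosol. Its Karpas422 levels were 174, 162 and 182 CPM with shCTRL, 121, 125 and 92.0 CPM with shSIRT3_1 and 137, 143 and 114 CPM with shSIRT3_2. Both knockdown groups lay wholly below the controls. HBL1 split by hairpin, with 130.0, 127 and 120.2 CPM for shCTRL, 93.7, 96.6 and 112 CPM for shSIRT3_1 and 161, 155 and 157 CPM for shSIRT3_2. None of the 3 HBL1 groups overlapped, with the controls in the middle. In OCILy1 the controls ran from 130.2 to 180.2 CPM, shSIRT3_1 from 91.0 to 138 CPM and shSIRT3_2 from 125 to 153 CPM, with overlap throughout. The OCILy1 value with shSIRT3_1 was −0.36 (adjusted p = 0.21, and 0.047 with the replicate block).

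Over the lines SOD1 fell with shSIRT3_1 by 0.44 on the log2 scale (SE 0.10, adjusted p = 0.0012), lower than the control mean in 9 of 9 libraries, and with shSIRT3_2 the value was −0.062 (SE 0.10, adjusted p = 0.65). In Karpas422 the fall with shSIRT3_1 was called at −0.63 (SE 0.13, adjusted p = 0.0063), where 16% of genes were. It was −0.49 without the third shSIRT3_1 replicate and −0.54 to −0.56 by edgeR or another scaling, each under 1.5-fold with an adjusted p of at most 0.017. With shSIRT3_2 the Karpas422 value was −0.40 (SE 0.13, adjusted p = 0.042), and the adjusted p was 0.057 to 0.11 without any 1 control replicate, shSIRT3_2 replicate 1 or 3 or shSIRT3_1 replicate 1. In HBL1 it was −0.32 (adjusted p = 0.021) with shSIRT3_1 and 0.33 (adjusted p = 0.023) with shSIRT3_2. Without the third shSIRT3_1 replicate these were −0.40 (adjusted p = 0.0020) and 0.33 (adjusted p = 0.0024). The median of all HBL1 genes was −0.11 with shSIRT3_1 and 0.0025 after median-ratio scaling, and under that scaling SOD1 was −0.22 (adjusted p = 0.10). The fall also missed the threshold, at an adjusted p of 0.057 to 0.075, without control replicate 1 or 2 or shSIRT3_1 replicate 1 or 2. The HBL1 value with shSIRT3_2 had an adjusted p of 0.055 to 0.086 without any 1 shSIRT3_2 replicate or without control replicate 2 or 3.

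CAT (chromosome 11, 34460481 to 34493607, plus strand) encodes catalase. In HBL1, where it was scarce, its level was 7.64, 6.64 and 11.2 CPM with shCTRL, 7.94, 8.99 and 14.1 CPM with shSIRT3_1 and 3.504, 4.71 and 5.04 CPM with shSIRT3_2. The shSIRT3_2 libraries lay wholly below both other groups. In OCILy1 it was 39.4, 35.7 and 41.0 CPM with shSIRT3_1 and 36.1, 31.3 and 32.2 CPM with shSIRT3_2, the latter all below the controls. In Karpas422 all knockdown libraries lay between 15.9 and 20.49 CPM, within or below the control range of 17.5 to 25.4 CPM. CAT fell with shSIRT3_2 over the lines by 0.48 (SE 0.15, adjusted p = 0.012), in 9 of 9 libraries, and with shSIRT3_1 the value was −0.035 (SE 0.15, adjusted p = 0.87). Without HBL1 the fall was 0.27 (adjusted p = 0.033), and without OCILy1 it was 0.53 (adjusted p = 0.060).

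The fall of CAT in HBL1 with shSIRT3_2 was called at −0.91 (SE 0.27, adjusted p = 0.028), where 23.5% of 11862 genes were. Its adjusted p was 0.058 to 0.11 without control replicate 1 or 3 or without shSIRT3_2 replicate 1 or 2, and the value without them was −0.97 to −0.69. In OCILy1 CAT fell by 0.39 (SE 0.10, adjusted p = 0.040), the only enzyme to pass the test in that line with either hairpin. No enzyme was called in OCILy1, where 4.5% of 11205 genes were called with shSIRT3_1 and 6.41% with shSIRT3_2. The OCILy1 fall had an adjusted p of 0.061 to 0.14 without any 1 shSIRT3_2 replicate, control replicate 3 or shSIRT3_1 replicate 1 or 3. Quantile normalization gave an adjusted p of 0.098 for the HBL1 value.

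The matrix peroxiredoxin PRDX3 (chromosome 10, 120927232 to 120938324, minus strand) fell in Karpas422 with both hairpins. There it was 114, 106 and 126 CPM with shCTRL, 86.7, 89.3 and 86.6 CPM with shSIRT3_1 and 84.4, 91.2 and 84.9 CPM with shSIRT3_2. The controls lay wholly above both knockdown groups, which overlapped each other. In HBL1 it was 88.7, 80.7 and 67.0 CPM with shCTRL, 86.4, 86.7 and 59.3 CPM with shSIRT3_1 and 109.7, 107 and 99.4 CPM with shSIRT3_2, the last wholly above the others. OCILy1 libraries ran from 80.3 to 111 CPM with overlap. In Karpas422 PRDX3 fell by 0.39 (SE 0.084, adjusted p = 0.0069) with shSIRT3_1 and by 0.41 (SE 0.084, adjusted p = 0.0064) with shSIRT3_2, and both passed in all alternatives run. In HBL1 the value with shSIRT3_2 was 0.43 (SE 0.16, adjusted p = 0.071, and 0.013 with the replicate block). Its adjusted p was 0.0080 without the third shSIRT3_1 replicate. The HBL1 value with shSIRT3_1 was −0.036 with that replicate and 0.15 (adjusted p = 0.33) without it.

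PRDX5 (chromosome 11, 64085593 to 64089283, plus strand), a peroxiredoxin of mitochondria, peroxisomes and cytosol, changed in HBL1. Its HBL1 levels were 84.3, 87.2 and 105 CPM with shCTRL, 57.0, 58.2 and 50.3 CPM with shSIRT3_1 and 78.3, 73.6 and 80.0 CPM with shSIRT3_2. The 3 groups did not overlap. In HBL1 it fell with shSIRT3_1 by 0.73 (SE 0.11, adjusted p = 0.0012), the one enzyme called there, where 27.7% of genes were. The fall was 0.67 (adjusted p = 0.0011) without the third shSIRT3_1 replicate. With shSIRT3_2 the value was −0.25 (adjusted p = 0.11, and 0.048 without that replicate). In Karpas422 it ranged from 75.9 to 106 CPM and in OCILy1 from 72.4 to 99.4 CPM, and nothing passed there. The fall over the lines with shSIRT3_1 (−0.31, SE 0.091, adjusted p = 0.0099) was −0.093 (adjusted p = 0.45) without HBL1.

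TXN2 (chromosome 22, 36863093 to 36877687, minus strand), the mitochondrial thioredoxin that recharges PRDX3, changed by small amounts. In HBL1 it was 43.8, 43.2 and 41.5 CPM with shCTRL, 57.5, 57.3 and 62.9 CPM with shSIRT3_1 and 45.9, 46.4 and 52.2 CPM with shSIRT3_2. In OCILy1 it was 48.4, 47.9 and 44.3 CPM with shCTRL, 52.8, 56.2 and 52.4 CPM with shSIRT3_1 and 45.0, 45.0 and 42.3 CPM with shSIRT3_2. All shSIRT3_1 libraries lay above the controls in these lines, while in Karpas422 their range, 40.0 to 41.6 CPM, met that of the controls, 37.2 to 40.0 CPM. TXN2 rose with shSIRT3_1 over the lines by 0.25 (SE 0.054, adjusted p = 0.00068), a 1.19-fold change seen in 9 of 9 libraries. It passed in all alternatives run, and without HBL1 it was 0.14 (adjusted p = 0.041). With shSIRT3_2 the value was −0.033 (SE 0.054, adjusted p = 0.65). In HBL1 the rise with shSIRT3_1 was 0.47 (SE 0.087, adjusted p = 0.0036), and 0.42 (adjusted p = 0.0035) without the third replicate.

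TXNRD1 (chromosome 12, 104609557 to 104744085, plus strand) encodes the cytosolic thioredoxin reductase, a selenoprotein and a known target of the stress-response factor NRF2. It was the one enzyme with NRF2-type letters in its promoter windows. The core of the antioxidant response element, TGACNNNGC searched on both strands, was found in 13.3% of all 35116 RefSeq promoter windows (build GRCh38.p14, 250 bases before to 50 after a start) and in 2 of the 17 windows of the 8 enzymes that had any; SOD1 and TXN2 had none. Both are TXNRD1 windows, shown because a library described next had TXNRD1 and some other NRF2 targets high, with the matches in capitals. The first window, at chr12:104215529-104215828 on the plus strand, holds a match 99 bases before the start on the plus strand and another 8 bases before it on the minus strand. The second, at chr12:104286782-104287081 on the plus strand, holds a match 102 bases before the start on the minus strand.
TXNRD1 window 1: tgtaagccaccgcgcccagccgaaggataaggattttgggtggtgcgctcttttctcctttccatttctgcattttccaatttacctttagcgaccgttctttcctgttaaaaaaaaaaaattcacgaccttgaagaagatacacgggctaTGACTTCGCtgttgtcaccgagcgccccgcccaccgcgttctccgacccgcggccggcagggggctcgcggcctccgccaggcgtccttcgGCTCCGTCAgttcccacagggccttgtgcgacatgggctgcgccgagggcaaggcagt
TXNRD1 window 2: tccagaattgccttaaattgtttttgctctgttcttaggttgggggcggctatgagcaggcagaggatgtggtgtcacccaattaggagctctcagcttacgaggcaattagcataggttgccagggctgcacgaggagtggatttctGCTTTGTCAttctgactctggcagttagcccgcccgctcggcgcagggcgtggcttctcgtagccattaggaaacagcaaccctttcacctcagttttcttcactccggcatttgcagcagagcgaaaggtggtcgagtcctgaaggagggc
A match is a description of letters and not of binding. FOXO (GTAAACA, in 3.42% of all windows), kappaB (1.91%) and ATF4 (TGATGNAA, 3.62%) letters were in none of the 17 windows.

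TXNRD1 in Karpas422 was 85.5, 78.7 and 90.7 CPM with shCTRL, 109.7, 106 and 114 CPM with shSIRT3_1 and 67.6, 71.1 and 54.9 CPM with shSIRT3_2. The groups did not overlap, with the controls in the middle. In HBL1 it was 96.7, 102 and 72.2 CPM with shCTRL, 89.9, 78.6 and 247 CPM with shSIRT3_1 and 54.8, 52.9 and 61.8 CPM with shSIRT3_2. The shSIRT3_2 libraries were lowest, and the value of 247 CPM belongs to the replicate that stood apart. In OCILy1 it was 73.2, 58.9 and 47.9 CPM with shCTRL, 67.2, 55.1 and 66.4 CPM with shSIRT3_1 and 54.1, 45.9 and 47.0 CPM with shSIRT3_2, where only the hairpins were apart.

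TXNRD1 fell with shSIRT3_2 over the lines by 0.45 (SE 0.15, adjusted p = 0.023), lower than the control mean in 9 of 9 libraries, and by 0.45 with an adjusted p of 0.00037 without the HBL1 library that stood apart. In Karpas422 it rose with shSIRT3_1 by 0.38 (SE 0.11, adjusted p = 0.023) and fell with shSIRT3_2 by 0.40 (SE 0.11, adjusted p = 0.018). The rise had an adjusted p of 0.057 to 0.076 without control replicate 1 or 2 or shSIRT3_1 replicate 1 or 3, and the fall of 0.054 to 0.055 without control replicate 1 or 3. In HBL1 the value with shSIRT3_2 was −0.66 (SE 0.37, adjusted p = 0.20), and it was called without that library (adjusted p = 0.0035), which the fit otherwise counts in the shared spread. Without Karpas422 the value over the lines was −0.47 (adjusted p = 0.12). With shSIRT3_1 the HBL1 value was 0.43 (SE 0.37, adjusted p = 0.38) with it and −0.086 (adjusted p = 0.66) without it.

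In the third HBL1 shSIRT3_1 replicate some other NRF2 targets were high as well. NQO1, a quinone reductase, was 48.0 CPM there, 0.692 to 1.16 CPM in the other shCTRL and shSIRT3_1 libraries of HBL1 and 2.56, 1.41 and 9.96 CPM with shSIRT3_2. HMOX1, the heme oxygenase, was 22.3 CPM there and 18.9 CPM in the third shSIRT3_2 replicate, and 1.91 to 5.86 CPM in the other 7. The ferritin light chain FTL was 967 CPM there, against 182 to 708 CPM elsewhere in HBL1. Of the 17 genes tested from a list of NRF2 pathway genes, 7 were highest in this library of the 9 HBL1 libraries (41.2%), as were 4 of the 10 enzymes (40.0%: CAT, TXN2, TXNRD1 and TXNRD2) and 26.4% of all genes. SLC7A11, a cystine transporter on that list, was at most 0.793 CPM in the shSIRT3_1 libraries of HBL1, against 9.68 to 16.0 CPM with shCTRL. In Karpas422 the third knockdown replicates were the highest of their groups for NQO1 and HMOX1. NQO1 was 7.84, 7.65 and 21.9 CPM with shSIRT3_1 and 6.58, 6.32 and 11.6 CPM with shSIRT3_2 there, against 3.92 to 6.55 CPM with shCTRL. HMOX1 was 1.30 and 1.25 CPM in the third replicates of the knockdowns, against 0.225 to 0.452 CPM in the other 7 Karpas422 libraries. The genes in the plot of NRF2 targets were chosen after their values were seen.

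**Figure D3:**
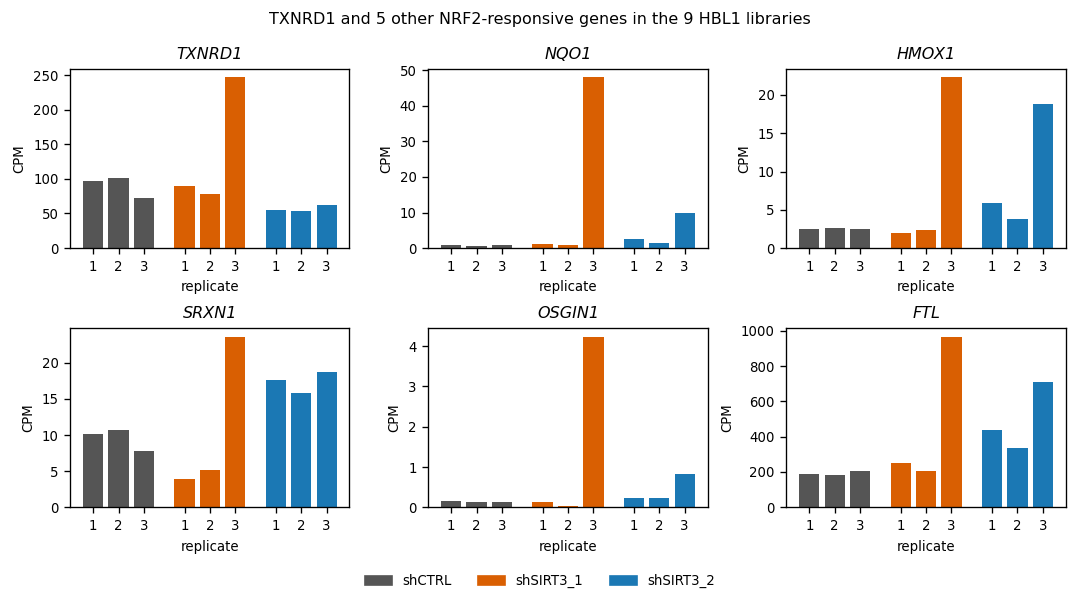
CPM of TXNRD1, NQO1, HMOX1, SRXN1, OSGIN1 and FTL in each of the 9 HBL1 libraries, as bars from 0 coloured by hairpin. The third shSIRT3_1 replicate is the highest bar in every panel, at 247 CPM for TXNRD1, and the third shSIRT3_2 replicate is next highest in every panel but that of TXNRD1.

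The mitochondrial reductase TXNRD2 (chromosome 22, 19863040 to 19929343, minus strand), which keeps TXN2 reduced, was scarce throughout. In Karpas422 it was 10.6, 10.1 and 7.75 CPM with shCTRL, 6.76, 7.55 and 5.91 CPM with shSIRT3_1 and 9.24, 9.15 and 9.12 CPM with shSIRT3_2. In HBL1 it was 5.60, 5.36 and 6.07 CPM with shCTRL, 7.08, 7.15 and 11.1 CPM with shSIRT3_1 and 6.29, 5.98 and 7.93 CPM with shSIRT3_2. The shSIRT3_1 libraries were thus all below the controls in Karpas422 and all above them in HBL1. In Karpas422 TXNRD2 fell with shSIRT3_1 by 0.48 (SE 0.14, adjusted p = 0.026), and the adjusted p was 0.077 after quantile normalization and 0.070 to 0.094 without control replicate 1 or 2 or shSIRT3_1 replicate 1 or 3. In HBL1 the value was 0.53 (SE 0.19, adjusted p = 0.056, and 0.013 with the replicate block), and 0.32 (adjusted p = 0.088) without the library that stood apart, and 0.64 to 0.78 (adjusted p 0.013 to 0.033) by edgeR or another scaling.

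GPX1 (chromosome 3, 49394607 to 49396038, minus strand) encodes the glutathione peroxidase of cytosol and mitochondria. It was 5.28, 5.32 and 9.20 CPM with shSIRT3_1 and 9.11, 8.44 and 12.8 CPM with shSIRT3_2 in Karpas422, against control values of 5.65, 7.20 and 7.37 CPM. In OCILy1 it was 30.7, 29.0 and 30.3 CPM with shSIRT3_1 and 32.5, 31.7 and 32.4 CPM with shSIRT3_2, and in HBL1 18.4, 18.5 and 23.7 CPM with shSIRT3_1 and 28.8, 24.0 and 42.5 CPM with shSIRT3_2. All shSIRT3_2 libraries lay above all controls in every line. With shSIRT3_1 7 of 9 libraries lay above the control mean.

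Over the lines GPX1 rose with shSIRT3_2 by 0.60 (SE 0.13, adjusted p = 0.00074), a 1.52-fold change, and in HBL1 by 0.91 (SE 0.21, adjusted p = 0.0099), where it was called. In Karpas422 it was 0.57 (adjusted p = 0.093, and 0.019 with the replicate block) and in OCILy1 0.32 (adjusted p = 0.11). The call over the lines is at the edge of 1.5-fold. The value was 0.52 to 0.58, with an adjusted p of at most 0.0020, without HBL1 control replicate 1 or 2, HBL1 shSIRT3_2 replicate 3, Karpas422 control replicate 1, Karpas422 shSIRT3_2 replicate 3 or OCILy1 control replicate 2. With a pseudocount of 1 it was 0.57, and without HBL1 it was 0.44 (adjusted p = 0.030). GPX1 has 2 named pseudogenes and shares 572 exon bases with another annotated gene on the same strand, so its counts may be split. Named pseudogenes also exist for SOD1, SOD2, PRDX3, PRDX5 and TXN2.

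GPX4 (chromosome 19, 1103981 to 1106790, plus strand) answered to the hairpins in opposite ways in HBL1. Its levels there were 78.1, 85.5 and 73.4 CPM with shCTRL, 59.8, 65.5 and 47.8 CPM with shSIRT3_1 and 105, 97.3 and 116 CPM with shSIRT3_2, 3 groups without overlap. In Karpas422 it was 36.7, 41.6 and 40.1 CPM with shSIRT3_1 and 51.1, 47.2 and 45.4 CPM with shSIRT3_2, the latter above all controls. OCILy1 values ran from 43.95 to 57.2 CPM and overlapped. In HBL1 it fell with shSIRT3_1 by 0.46 (SE 0.13, adjusted p = 0.022) and rose with shSIRT3_2 by 0.43 (SE 0.13, adjusted p = 0.034). Without the third shSIRT3_1 replicate the fall was 0.33 (adjusted p = 0.027) and the rise had an adjusted p of 0.0046. Without control replicate 1 or 2 the adjusted p of the fall was 0.061 and 0.088. In Karpas422 GPX4 rose with shSIRT3_2 by 0.35 (SE 0.096, adjusted p = 0.022), with an adjusted p of 0.051 to 0.081 without control replicate 1 or 2 or shSIRT3_2 replicate 1 or 2. The rise over the lines with shSIRT3_2 (0.26, SE 0.10, adjusted p = 0.043) and that in HBL1 lay near the threshold. In HBL1 the adjusted p was 0.051 to 0.11 without any 1 control or shSIRT3_2 replicate. Over the lines it was 0.051 to 0.10 without HBL1 control replicate 1 or 3, any HBL1 shSIRT3_2 replicate, Karpas422 control or shSIRT3_2 replicate 1 or 2, or OCILy1 control replicate 2, and 0.064 with no filter. It was 0.18 (adjusted p = 0.10) without HBL1 and 0.22 (adjusted p = 0.25) without Karpas422.

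**Figure D4:**
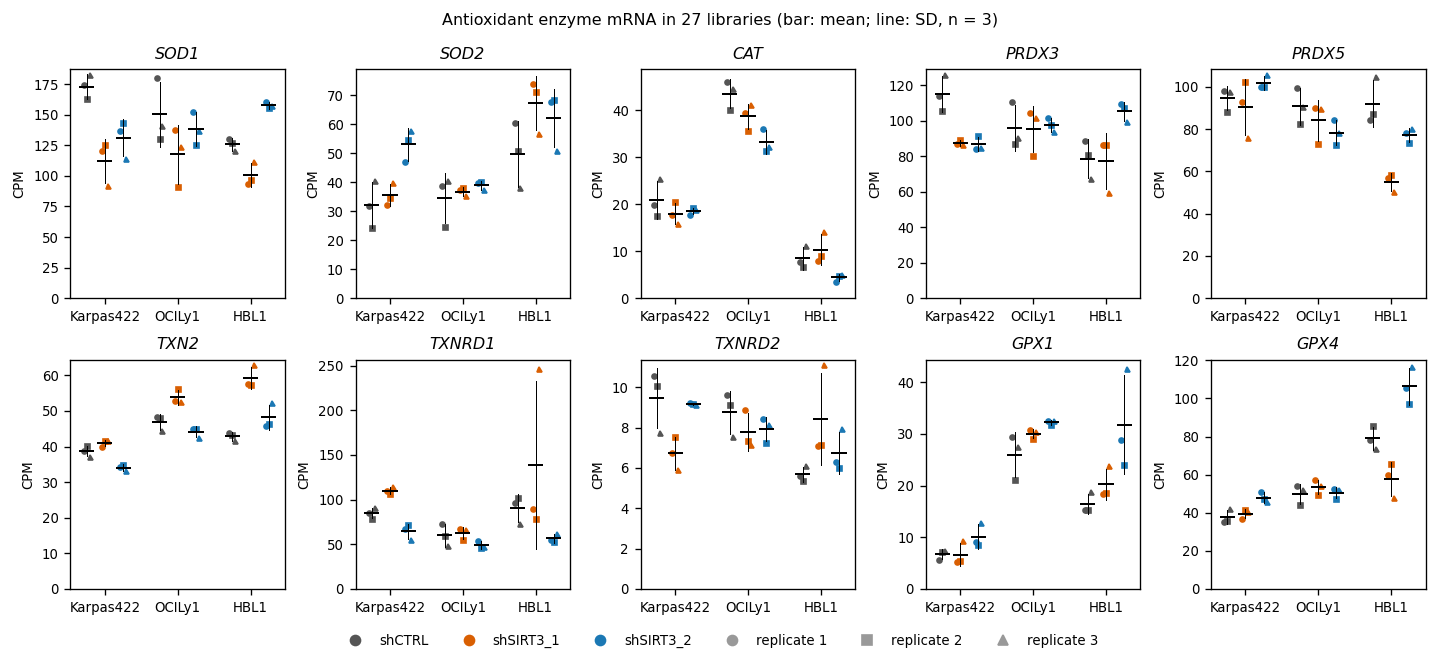
CPM of the 10 enzymes in all 27 libraries, 1 panel per gene with axes from 0, by line and hairpin, with each replicate as a point, the group mean as a bar and the SD (n = 3) as a line. The panels show GPX4 in HBL1 at 73.4 to 85.5 CPM with shCTRL between 47.8 to 65.5 CPM with shSIRT3_1 and 97.3 to 116 CPM with shSIRT3_2, and the single TXNRD1 value of 247 CPM.

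The hairpins were also set against each other. SIRT3 itself was higher with shSIRT3_2 than with shSIRT3_1, by a log2 difference of 1.08 over the lines (SE 0.175, adjusted p = 4.6e-05). In Karpas422, OCILy1 and HBL1 the SIRT3 difference was 0.99, 1.70 and 0.56. Hairpin and depth of knockdown therefore cannot be told apart. Of all genes, 26.9%, 15.8% and 29.7% lay wholly higher with shSIRT3_2 than with shSIRT3_1 in Karpas422, OCILy1 and HBL1. Wholly lower were 17.1%, 21.25% and 26.8%. Of the enzymes, 3, 1 and 5 lay wholly higher and 2, 2 and 3 wholly lower. Over the lines, 6 of the 10 differed between shSIRT3_2 and shSIRT3_1 at any fold, where 31.7% of all genes did: SOD1, GPX1 and GPX4 were higher and CAT, TXN2 and TXNRD1 lower with shSIRT3_2. Only TXNRD1 was called (−0.74, SE 0.15, adjusted p = 0.00061), where 11.3% of genes were, and it was −0.58 (adjusted p = 4.9e-05), just under 1.5-fold, without the HBL1 library that stood apart. In Karpas422 TXNRD1 was the one call (−0.78, SE 0.11, adjusted p = 0.0024), where 11.5% of genes were. There 4 of 10 passed at any fold, against 22.7%: SOD2, TXN2, TXNRD1 and TXNRD2. Of 16 alternatives, TXNRD2 missed the threshold in 11, SOD2 in 10 and TXN2 in 6. In OCILy1 none was called or passed at any fold, where 4.68% and 7.1% of genes were, and with the replicate block TXN2 passed (−0.29, adjusted p = 0.046, where 11.4% of genes did). In HBL1 8 of 10 passed at any fold, where 39.9% of genes did, and 5 were called, where 27.9% were: SOD1 at 0.65, GPX1 at 0.62 and GPX4 at 0.89 were higher with shSIRT3_2, and CAT at −1.18 and TXNRD1 at −1.09 lower. Of 16 alternatives, TXN2 missed the threshold in 2 and PRDX3 (0.47, adjusted p = 0.0496) in 10. PRDX3 was 0.28 (adjusted p = 0.078) without the third shSIRT3_1 replicate. Without that replicate SOD1, CAT, GPX1 and GPX4 still passed both thresholds, among them GPX4 at 0.76 (adjusted p = 0.00085) and CAT at −0.94 (adjusted p = 0.013), while TXNRD1 was −0.58 (adjusted p = 0.016). The HBL1 difference of GPX1 had an adjusted p of 0.043, and of 0.052 to 0.11 in 10 of 16 alternatives, among them leaving out any control or knockdown replicate but the third control, the third shSIRT3_1 and the second shSIRT3_2. That of TXNRD1 (adjusted p = 0.045) had 0.057 to 0.11 without any 1 control or shSIRT3_2 replicate. Over the lines the difference of CAT (−0.45, adjusted p = 0.022) had an adjusted p of 0.054 without the first HBL1 shSIRT3_2 replicate. Over the lines without HBL1, the differences of SOD1, CAT, GPX1 and GPX4 had an adjusted p of 0.085 to 0.55. That of GPX1 had 0.067 without Karpas422 and that of CAT 0.051 without OCILy1.

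The response to the hairpins differed between the lines for 6 of the 10 enzymes, where 41.8% of all genes passed the same interaction test: GPX4 (adjusted p = 0.0011), PRDX5 (0.0060), CAT (0.012), TXNRD2 (0.014), PRDX3 (0.014) and TXN2 (0.020). The change of SIRT3 itself also differed between the lines by that test (adjusted p = 0.0029). With shSIRT3_2 its log2 fold change was −2.14 in HBL1, −0.88 in Karpas422 and −1.08 in OCILy1. With shSIRT3_1 it was −2.70, −1.87 and −2.78 in the same order. Line and depth of knockdown cannot be told apart here. In pairs of lines, the response of PRDX5 to shSIRT3_1 was lower in HBL1 than in Karpas422 by 0.66 (SE 0.16, adjusted p = 0.0074) and lower than in OCILy1 by 0.62 (SE 0.16, adjusted p = 0.0086). The response of TXNRD2 to shSIRT3_1 was higher in HBL1 than in Karpas422 by 1.01 (SE 0.23, adjusted p = 0.0053), and that of PRDX3 to shSIRT3_2 by 0.83 (SE 0.19, adjusted p = 0.0048). These pairs of lines were not fitted again without the third HBL1 shSIRT3_1 replicate. In the fit of HBL1 alone, TXNRD2 with shSIRT3_1 was 0.53 with that replicate and 0.32 without it. No response of any of the 10 differed between Karpas422 and OCILy1 past the threshold, where 4.32% and 6.14% of all genes did with shSIRT3_1 and shSIRT3_2. SOD1 missed it (adjusted p = 0.051) and passed in 10 of 34 alternatives, with 0.040 by edgeR, 0.036 after median-ratio scaling, 0.049 with a pseudocount of 1, 0.035 with the replicate block and 0.015 to 0.0496 in 6 that left out 1 library, among them 0.040 without the third HBL1 shSIRT3_1 replicate. Its response to shSIRT3_2 was higher in HBL1 than in Karpas422 by 0.73 (SE 0.20, adjusted p = 0.018). The SOD2 interaction had an adjusted p of 0.16, and of 0.043 without the second OCILy1 control replicate.

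Lists of genes around these enzymes were read in the same way over the 3 lines. Of all genes, 15.6% passed the adjusted p upward and 22.3% downward with shSIRT3_1, and 16.3% and 21.7% with shSIRT3_2. Of 16 tested among 23 other antioxidant enzymes, 2 passed the adjusted p upward and 4 downward with shSIRT3_1, and 4 upward and 0 downward with shSIRT3_2. The median was −0.0093 and 0.17. PRDX1, the abundant cytosolic peroxiredoxin, was the one called with both hairpins. It rose from 63.5 to 128 CPM in Karpas422 controls to 172 to 187 CPM with shSIRT3_1 and 193 to 222 CPM with shSIRT3_2, and from 76.2 to 113 CPM in HBL1 controls to 169 to 232 CPM with shSIRT3_1 and at most 273 CPM with shSIRT3_2. Over the lines its log2 fold change was 0.82 (SE 0.16, adjusted p = 0.00020) and 1.04 (SE 0.16, adjusted p = 1.6e-05). In OCILy1 the groups overlapped, since controls ran from 112 to 291 CPM. PRDX2 was at most 0.336 CPM in HBL1 and 50.4 to 112.5 CPM in the other lines.

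Among 17 tested NRF2 pathway genes, 2 passed upward and 3 downward with shSIRT3_1, and 3 upward and 4 downward with shSIRT3_2. The cystine transporter SLC7A11, which feeds glutathione synthesis, fell by 2.76 (SE 0.38, adjusted p = 5.4e-06) and by 1.85 (SE 0.38, adjusted p = 0.00052). FTL rose by 0.71 (SE 0.21, adjusted p = 0.0085) and by 0.86 (SE 0.21, adjusted p = 0.0022). Without the third HBL1 shSIRT3_1 replicate the rise of FTL with shSIRT3_1 was 0.52 (adjusted p = 0.010), under 1.5-fold, and without Karpas422 it was 0.63 (adjusted p = 0.11). SLC7A11 in OCILy1 controls ran from 3.66 to 29.4 CPM, a wide range for a single group.

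For 4 of the 10 enzymes, TXNRD1, TXNRD2, GPX1 and GPX4, the protein contains selenocysteine. Of 7 tested genes of selenoprotein synthesis, 0 passed upward with either hairpin and 2 passed downward with each. SEPSECS, the enzyme that completes selenocysteine on its tRNA, fell with both, by 0.62 (SE 0.12, adjusted p = 0.00023) and by 0.76 (SE 0.12, adjusted p = 2.8e-05). In HBL1 with shSIRT3_1 it ran from 10.8 to 22.7 CPM and overlapped the controls, at 18.6 to 21.0 CPM. Every other knockdown group lay wholly below the controls of its line. SEPHS2, which makes selenophosphate and was picked out after its values were seen, was called with shSIRT3_2 at −1.39 (SE 0.13, adjusted p = 6.5e-08). It was not called with shSIRT3_1, and the hairpins differed, with shSIRT3_2 less shSIRT3_1 at −0.91 (SE 0.13, adjusted p = 1.3e-05). Among 9 other selenoprotein genes, 4 passed upward and 2 downward with shSIRT3_1 and 2 upward and 1 downward with shSIRT3_2. Among 9 genes of mitochondrial NADPH supply and FOXO regulation, 1 passed upward and 5 downward with shSIRT3_1, with a median of −0.39, and 0 upward and 1 downward with shSIRT3_2, with a median of −0.020.

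The genes whose level followed that of SOD2 most closely were found after the mean of each line was taken off log2(CPM + 0.1). Over the 27 libraries Pearson's r with SOD2 was 0.78 for DIS3L2, 0.78 for DNAJC17, 0.78 for EDF1, 0.78 for NDUFA1, a subunit of respiratory complex I, and 0.77 for MRPS7, a protein of the mitochondrial ribosome. Among the enzymes themselves the same measure ran from −0.70 for PRDX5 with TXN2 to 0.69 for SOD1 with PRDX3, and the highest with SOD2 was 0.43 for GPX1. All points share libraries, hairpin groups and depth, so these values are descriptions.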

How the data were processed

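Gene expression was measured by paired-end RNA-seq in 27 libraries, which the authors aligned to hg19 with STAR (version not given in the sources used here) and counted over RefSeq genes with Rsubread. The deposited values carry the name FPKM. Within a library every value is 1 step times a whole number and gene length does not enter, so they are CPM of the total the authors divided by. Dividing by the step gave whole reads for 100% of non-zero values within 0.01 read. The reads on genes were 40.3% to 45.6% of that total, and their number (median 45669254) sets the counting precision.

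From these values log2(CPM + 0.1) was computed and tested with limma 3.58.1 (trend, R 4.3.3), keeping genes with at least 1 CPM in at least 3 of the libraries fitted. The fit over lines used all 27 libraries with cell line as an additive term. Each line was also fitted by itself (9 libraries), as were the 9 shCTRL libraries, and an F test on the interaction of line and hairpin used all 27. P-values were adjusted by Benjamini-Hochberg over all genes tested, and a call needed more than 1.5-fold and an adjusted p under 0.05. Fold changes are on the log2(CPM + 0.1) scale, which understates those of low genes. On simulated data with 2-fold changes in 200 genes, the fit over lines called 200 of 200 and that of HBL1 alone 183 of 198. The interaction test found 98 of 200. The simulation gave every gene the same dispersion and changed only genes expressed in every line. It held no library that stood apart and no shared deviation of same-numbered replicates. Recovery of changes smaller than 2-fold, or in genes with a wider spread, was not tested, so these counts do not extend to them.

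Alternatives were pseudocounts of 0.01 and 1, no filter, quantile normalization, median-ratio scaling, edgeR 4.0.16 (quasi-likelihood, TMM) on the recovered reads, the replicate number as a block, and leaving out each library or line. The alternatives for the hairpins against each other within a line, and the union of exons as length, were chosen after seeing the data. The tests of responses in pairs of lines were added after the interaction test. Named genes were the 10 enzymes and SIRT3, list genes called with both hairpins in the same direction, and the 5 genes most like SOD2. The members and lists were chosen with earlier results of these data known. Positions and lengths are from GENCODE release 44 mapped to GRCh37. Deviations of same-numbered replicates from their group means correlated at r over 0.1 in 9 of 9 pairs in HBL1 (r 0.217 to 0.498) and in OCILy1 (0.109 to 0.564). In Karpas422 8 of 9 did (lowest 0.0144), all over all genes. Among 54 pairs of other numbers 12 did, and in HBL1 these reached 0.347, above the lowest same-numbered pair. No label says what the numbers mark, so the pairing comes from the data, and whether the numbers mark pairs was not tested.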

Additional observations from a re-analysis of the deposited data

Results flagged for a closer look

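For 6 of the 10 enzymes the response to the hairpins differed between the lines by the interaction test of limma, adjusted over all genes: CAT (adjusted p = 0.0119), PRDX3 (0.0145), PRDX5 (0.00598), TXN2 (0.0204), TXNRD2 (0.0136) and GPX4 (0.00108). The same held for 41.8% of all genes tested. PRDX5, TXNRD2, GPX4 and TXN2 answered to shSIRT3_1 differently in HBL1 and Karpas422, by log2 differences of −0.66, 1.01, −0.53 and 0.38 (HBL1 less Karpas422, adjusted p = 0.0074, 0.0053, 0.026 and 0.012). For CAT no single pair of lines passed; the nearest was HBL1 less Karpas422 with shSIRT3_2 (−0.75, adjusted p = 0.063). PRDX3 and TXN2 differed between HBL1 and Karpas422 with shSIRT3_2 by 0.83 (adjusted p = 0.0048) and 0.35 (adjusted p = 0.020). All 6 kept an adjusted p under 0.05 in each of 34 alternatives, the highest being 0.04998 for TXN2 without the third HBL1 control replicate. Without the third HBL1 shSIRT3_1 replicate their adjusted p ran from 0.0021 for GPX4 to 0.028 for TXNRD2. The pairs of lines were not fitted again without that replicate. SIRT3 itself also differed between the lines by this test (adjusted p = 0.0029), so line and depth of knockdown cannot be told apart. The cause of the differences was not tested.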

How the results depend on the processing

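Of 67 results for the enzymes with an adjusted p under 0.05, 36 kept it in every alternative run, 31 lost it in at least 1, 9 of them under another scaling or edgeR, and 0 changed sign. With shSIRT3_1, the count of called enzymes in HBL1 went from 1 to 2 by edgeR, median-ratio scaling or quantile normalization, and in Karpas422 from 1 to 0 by the same 3. With shSIRT3_2, the count over the lines went from 1 to 0 with a pseudocount of 1 or without HBL1 and to 2 without Karpas422, and in HBL1 from 2 to 1 after quantile normalization. Between the hairpins, it went over the lines from 1 to 0 without HBL1 and to 2 without Karpas422 or without OCILy1, and in HBL1 from 5 to 3 with no filter or after quantile normalization. The cause was not tested.

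With 1 library left out, the counts between HBL1 and OCILy1 controls ran from 3 to 6. With shSIRT3_1 they ran from 1 to 2 in HBL1 and from 0 to 2 in Karpas422. With shSIRT3_2 they ran from 0 to 1 over the lines, from 1 to 3 in HBL1 and from 0 to 1 in Karpas422. Between the hairpins they ran from 0 to 1 over the lines, from 3 to 4 in HBL1 and from 1 to 2 in Karpas422. The HBL1 count of 5 between the hairpins with all libraries was thus not reached with any library left out.

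With the replicate number as a block, the count between the hairpins in Karpas422 went from 1 to 2, where GPX1 was added. In that line GPX1 with shSIRT3_2 had an adjusted p of 0.019. GPX4 over the lines with shSIRT3_2 had 0.051 with the block, and the number of enzymes with a response that differed between lines went from 6 to 7. Beside these and the values given above, the block moved no enzyme across the threshold.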
